A study of Mus musculus with 4 samples.

Results

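*Ascl3*, *Foxi1*, *Elf5*, *Kit*, *Gfra3* and *Gstt1* are 6 genes used to describe the duct system of the salivary gland, where they serve as lineage regulators or as markers of the intercalated duct. They were chosen by symbol, and 6 of the 32285 genes listed in the single-cell RNA-seq matrix matched. All 6 had UMIs, as had 19290 genes of the matrix. The cells came from the sublingual gland (SLG) and the submandibular gland (SMG) of untreated wild-type female C57BL/6N mice, aged 6 to 8 weeks. The series lists 4 samples of both glands together, and its labels name 2 mice whereas the methods name 3. Neither says which mouse or gland a sample holds. The matrix carries 1 barcode suffix and lists no barcode again, so its 15707 barcodes, as many as the cells counted in the methods, could not be assigned to a sample and counted as 1 sample. No test between mice or glands was therefore possible, and the intervals below cover counting error only.

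Saliva is made in acini and leaves through a series of ducts. Intercalated ducts drain the acini, and striated ducts then take sodium and chloride back from the saliva. In the rodent SMG a further segment, the granular convoluted duct, stores kallikreins and growth factors. Basal and myoepithelial cells lie beneath the luminal cells. *Ascl3* encodes a basic helix-loop-helix transcription factor of salivary duct cells. *Foxi1* encodes a forkhead transcription factor needed for ionocytes, the cells of kidney, inner ear and airway that move protons and chloride. *Elf5* encodes an ETS transcription factor best known from the luminal progenitors of the mammary gland. *Kit* encodes the receptor tyrosine kinase for stem cell factor, and the receptor is a common marker of intercalated ducts. *Gfra3* encodes the co-receptor through which artemin signals to the RET kinase. *Gstt1* encodes a theta class glutathione transferase, an enzyme that joins glutathione to reactive compounds.

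In GENCODE M21 on GRCm38 (mm10) all 6 are protein-coding genes. *Ascl3* lies on chromosome 7 at 109727465 to 109731726 on the minus strand, and *Foxi1* on chromosome 11 at 34204338 to 34208089 on the minus strand, each with 2 exons. *Elf5* is on chromosome 2 (103411688 to 103450989, plus strand) and *Kit* on chromosome 5 (75574916 to 75656722, plus strand). *Gstt1* is on chromosome 10 (75783813 to 75798584, minus strand). The position of *Gfra3* is not given here. No annotated gene on either strand overlaps any of the 6. Of the last 500 bases of their transcripts, none shared a run of 60 or more bases with a transcript of another gene, so their 3′ counts were not split with a near-identical copy of that kind.

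*Ascl3* and *Foxi1* were the pair with the most similar levels across cell clusters, as described below, so the 250 bases before the start of each gene are shown. They are from RefSeq on GRCm38.p6, at chr7:109731733-109731982 and chr11:34208090-34208339, both on the minus strand and written 5′ to 3′. Capitals mark the matches to 4 motifs searched on both strands, namely CAGCTG (an E-box of ASCL-type factors), GTAAACA (forkhead), GGAAG (the ETS core) and TATAAA (the TATA box, added after the sequences had been seen).
Ascl3: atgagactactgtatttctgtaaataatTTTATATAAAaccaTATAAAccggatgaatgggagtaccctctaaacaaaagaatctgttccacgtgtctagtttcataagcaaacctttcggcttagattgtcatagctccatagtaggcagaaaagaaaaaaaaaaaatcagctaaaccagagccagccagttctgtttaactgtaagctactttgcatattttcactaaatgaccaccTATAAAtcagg
Foxi1: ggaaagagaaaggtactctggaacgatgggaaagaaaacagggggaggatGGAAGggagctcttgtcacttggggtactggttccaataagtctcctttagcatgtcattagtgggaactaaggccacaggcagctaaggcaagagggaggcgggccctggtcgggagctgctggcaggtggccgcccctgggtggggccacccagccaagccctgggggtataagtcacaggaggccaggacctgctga

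The *Ascl3* sequence held TATAAA 4 times, and 2 of these matches overlap on opposite strands. The nearest lay 11 to 6 bases before the start. The *Foxi1* sequence held GGAAG once, 200 to 196 bases before the start. Neither held CAGCTG or GTAAACA. Of 32817 promoters of the same length, 12.4% held TATAAA, 64.1% GGAAG, 13.01% CAGCTG and 3.16% GTAAACA. The G and C content was 34.8% for *Ascl3* and 58.8% for *Foxi1*. Among the others, 1 of 2 *Elf5* promoters held CAGCTG and GGAAG once each, both *Kit* promoters (4 bases apart) held GGAAG once, and *Gstt1* held none of the motifs. These matches describe letters only.

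The matrix held 125100595 UMIs, at a median of 2608 per cell (1374 to 141509). A UMI marks 1 captured RNA molecule, and only 3′ ends were counted, so counts do not grow with transcript length. Of all UMIs, 75.5% belonged to the 10 transcripts with the highest counts. The 6 genes and their pathway genes were left out of the clustering, although 5 of the 6 had been among the variable genes. Of 25 clusters, 13 fell into 9 epithelial classes with 11659 cells (74.2%), named from marker lists or from leading genes. The names mean duct-like, acinar-like and so on, since they were rebuilt here. Duct cells formed a *Slc4a11*-rich class (cluster 3, 1080 cells) and a kallikrein-rich class (clusters 6 and 9, 780 and 483 cells). They also formed an *Esp4*-rich class (cluster 11, 396 cells) and a basal class (cluster 17, 179 cells). A *Smgc*-rich class (232 cells), myoepithelial cells (127), serous acinar cells (4978), *Dcpp*-rich acinar cells (3158) and mucous acinar cells (246) made up the rest. Of 8 striated duct markers, *Slc13a2*, *Slc9a3* and *Esp4* counted for the *Esp4*-rich class. *Fxyd2*, *Scnn1a*, *Scnn1b* and *Klk1* counted for both the *Slc4a11*-rich and the kallikrein-rich class, so the list did not single out a striated duct class. Clusters 0, 1 and 10 of the acinar classes had under 500 genes in the median cell. Scrublet called 0 doublets among the 15707 barcodes, so the caller had not worked, and doublets were not removed.

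Over the whole matrix *Ascl3* had 3836 UMIs in 1745 cells and *Foxi1* 3035 UMIs in 1456 cells. *Elf5* had 3606 UMIs, spread over 2608 cells. *Kit* had 1760 UMIs in 1267 cells and *Gstt1* 999 UMIs in 822 cells. *Gfra3* was the rarest, with 116 UMIs in 90 cells, or 0.573% of all cells. Its levels therefore rest on few molecules. In the following a level means the number of UMIs that a gene had among every 10000 UMIs counted in a class, and brackets hold its exact Poisson 95% interval.

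**Figure D1:**
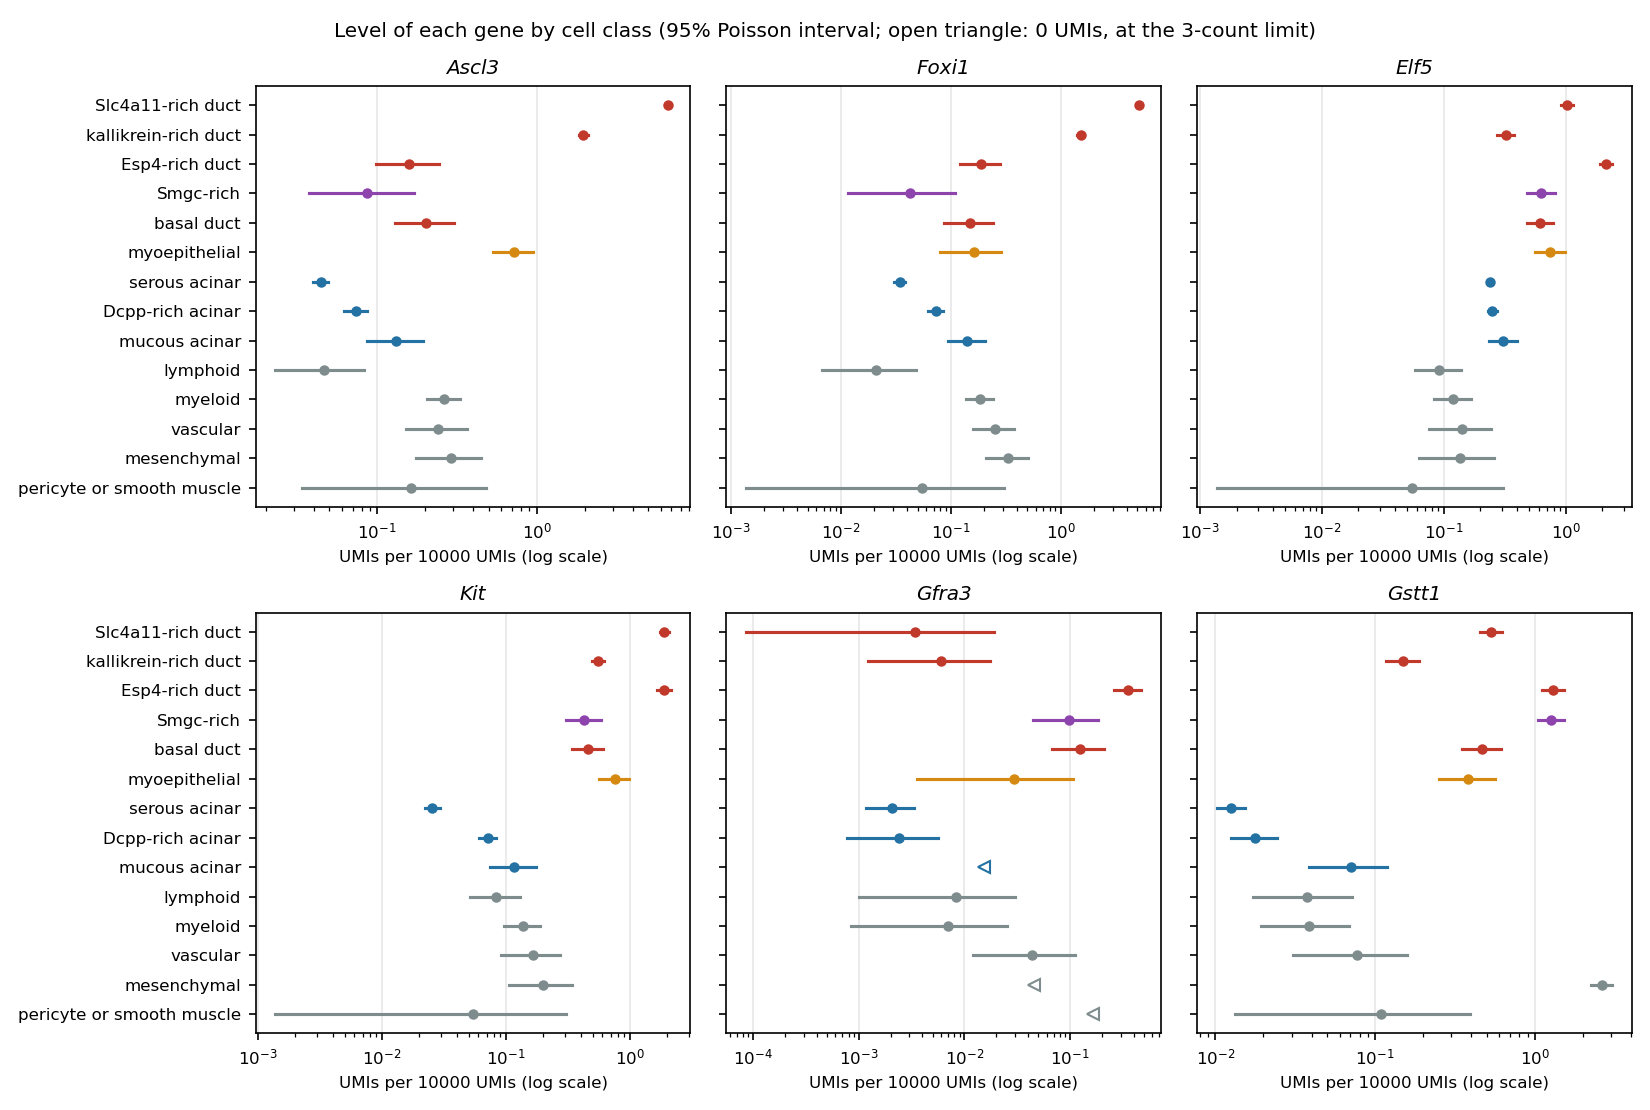
Level of each of the 6 genes (UMIs per 10000 UMIs, log axis, a separate range in each panel) in 9 epithelial and 5 other cell classes. Points are levels with 95% Poisson intervals, and open triangles mark classes with 0 UMIs, placed at the limit of 3 counts. *Ascl3* and *Foxi1* stand highest in *Slc4a11*-rich duct cells, *Elf5* and *Gfra3* in *Esp4*-rich duct cells, *Kit* in both, and *Gstt1* in mesenchymal cells.

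A gene was called for a class when its level there was at least 2-fold that in every other epithelial class. Of the 6 genes 4 were called, against 10.4% of the 11353 genes with at least 50 UMIs in the epithelial classes. The 6 genes and the lists below were chosen with earlier results of these data known, so such shares describe them and test nothing. *Ascl3* and *Foxi1* were called for *Slc4a11*-rich duct cells, where 2.11% of all genes were called. *Elf5* and *Gfra3* were called for *Esp4*-rich duct cells, where 1.22% were called. None of the 6 was called for kallikrein-rich duct (1.16% of all genes), *Smgc*-rich (1.15%), basal duct (2.33%), myoepithelial (1.47%), serous acinar (0.141%), *Dcpp*-rich acinar (0.0176%) or mucous acinar cells (0.775%). *Kit* and *Gstt1* had their 2 highest classes at nearly the same level and were called for none. The median ratio of the highest to the second highest class was 2.48 over the 6 genes and 1.21 over all genes tested.

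The level of *Ascl3* was 6.64 (6.35 to 6.94) in *Slc4a11*-rich duct cells and 1.96 (1.84 to 2.09) in kallikrein-rich duct cells, a 3.38-fold difference with a log2 ratio of 1.76 (1.65 to 1.87). Myoepithelial cells followed at 0.721 (0.533 to 0.953). The other 6 epithelial classes lay between 0.0442 in serous acinar cells and 0.203 in basal duct cells. *Ascl3* thus fell into 3 steps followed by a low group, and from basal duct through *Esp4*-rich duct, mucous acinar and *Smgc*-rich to *Dcpp*-rich acinar cells, no neighbours in the order differed beyond counting error. The median share of mitochondrial UMIs was 11.97% and 10.9% in the 2 leading classes, 4.32% in *Esp4*-rich duct cells and 1.69% in serous acinar cells. The part of this in the levels was not tested. Of all *Ascl3* UMIs, 51.0% lay in *Slc4a11*-rich and 25.7% in kallikrein-rich duct cells.

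*Foxi1* had the same 2 leading classes. Its level was 5.18 (4.93 to 5.45) in *Slc4a11*-rich and 1.52 (1.42 to 1.64) in kallikrein-rich duct cells, with a log2 ratio of 1.77 (1.64 to 1.89). Among epithelial classes *Esp4*-rich duct cells came next at 0.190 (0.123 to 0.280), 8.04-fold below the kallikrein-rich class. Here *Foxi1* parted from *Ascl3*, since myoepithelial cells had 11 UMIs of *Foxi1* at a level of 0.162 (0.0808 to 0.290) but 49 UMIs of *Ascl3*. The 49 UMIs came from 16 of 127 cells, with up to 9 in a cell. Outside the epithelium *Foxi1* was at 0.186 in myeloid, 0.252 in vascular and 0.334 in mesenchymal cells. It was at 0.0209 in lymphoid and 0.0546 in pericyte or smooth muscle cells. The *Esp4*-rich and myoepithelial levels thus did not stand above all non-epithelial classes. Among epithelial classes *Foxi1* was lowest in serous acinar cells as a whole, at 0.0344 (0.0304 to 0.0388). It was at 0.143 (0.125 to 0.164) in serous cluster 0 and 0.00804 in the much deeper cluster 2.

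A share of cells with a UMI was set beside that in lymphoid cells. Of the non-epithelial classes these had the lowest levels of *Ascl3* and *Foxi1*, so background in other classes can be higher. *Ascl3* had a UMI in 68.5% (65.7 to 71.3, Clopper-Pearson) of *Slc4a11*-rich duct cells and in 0.969% (0.485 to 1.73) of lymphoid cells, at median depths of 2450 and 1872 UMIs. After thinning each cell to 1000 UMIs, for which all cells were deep enough, these became 42.3% and 0.705%. *Foxi1* went from 57.2% (54.2 to 60.2) to 33.0% in *Slc4a11*-rich duct cells, and from 0.352% to 0.0881% in lymphoid cells. The level of *Ascl3* in lymphoid cells, 0.0460 (0.0230 to 0.0824), had an interval that held that of serous acinar cells as a whole, but not those of its clusters. Among the serous clusters *Ascl3* was at 0.187 (0.166 to 0.210) in cluster 0, above the lymphoid interval. It was at 0.00879 in the much deeper cluster 2, below that interval. Myeloid cells stood higher than lymphoid cells, at 0.263 (0.207 to 0.329), with 75 UMIs in 33 of 1099 cells and up to 8 in a cell. Vascular cells were at 0.241 (0.151 to 0.365) and mesenchymal cells at 0.289 (0.174 to 0.451). Of these 33 myeloid cells, 14 also had a UMI of *Foxi1*, against 0.661 if the 2 genes were independent. Cluster 18, left unnamed with 152 cells, had lymphoid markers such as *Cd3d* beside ductal markers such as *Krt7*. It was at 1.48 (1.16 to 1.86) for *Ascl3* and 1.24 (0.95 to 1.59) for *Foxi1*, above these non-epithelial classes. The source of the UMIs in these classes and in cluster 18 was not tested.

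**Figure D2:**
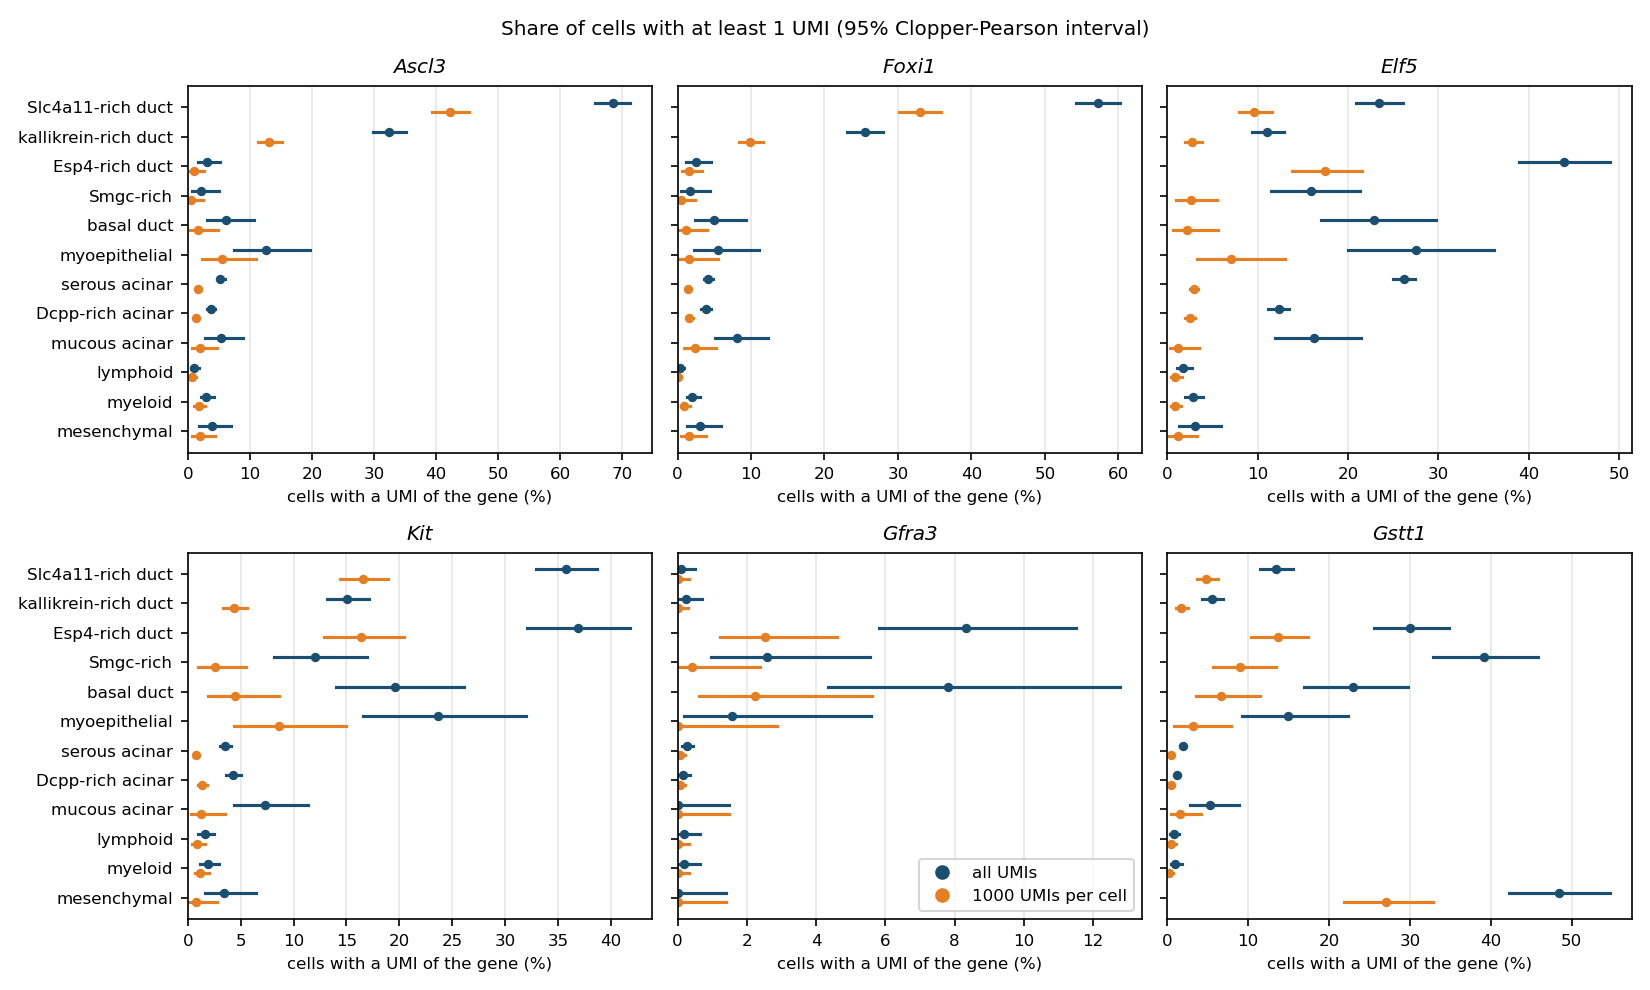
Share of cells with at least 1 UMI of each gene (percent, a separate range in each panel) in 9 epithelial and 3 other classes, from all UMIs and with each cell thinned to 1000 UMIs, with 95% Clopper-Pearson intervals. Thinning lowered *Elf5* in serous acinar cells from 26.2% to 2.91% and in *Esp4*-rich duct cells from 43.9% to 17.4%.

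Within the kallikrein-rich class the 2 clusters differed. The level of *Ascl3* was 3.70 in cluster 9 and 0.301 in cluster 6, a log2 ratio of 3.62 (3.28 to 3.97). *Foxi1* was at 2.92 and 0.184, with a log2 ratio of 3.99 (3.57 to 4.45), and *Kit* at 1.03 and 0.0899, with a log2 ratio of 3.53 (2.91 to 4.21). Cluster 9 therefore supplied most of the *Ascl3*, *Foxi1* and *Kit* of kallikrein-rich cells. *Elf5* and *Gstt1* were also higher in cluster 9, by log2 ratios of 1.53 (1.01 to 2.07) and 1.24 (0.503 to 2.01). *Gfra3* had 1 UMI in cluster 9 and 2 in cluster 6.

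Counted per cell, cluster 9 was close to cluster 3 for these genes and to cluster 6 for kallikreins. *Ascl3* was at 1.88 UMIs per cell in cluster 9, 1.81 in cluster 3 and 0.0987 in cluster 6. *Kit* was at 0.526, 0.517 and 0.0295 in the same order, and *Slc4a11*, which encodes a membrane transporter, at 1.85, 1.82 and 0.0628. *Klk1*, the tissue kallikrein, had 506, 31.5 and 482 UMIs per cell, again for clusters 9, 3 and 6. The mean cell of cluster 9 held 5081 UMIs, against 2726 and 3281. Only 13 of 8681 genes (0.150%) were at least 2-fold higher per 10000 UMIs in cluster 9 than in both others, led by *Muc19* and *A2ml1*. Whether its barcodes hold 1 cell or 2 was not tested. Without cluster 9, left out after its values had been seen, *Slc4a11*-rich exceeded kallikrein-rich duct cells by log2 ratios of 4.46 for *Ascl3* and 4.82 for *Foxi1*.

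**Figure D3:**
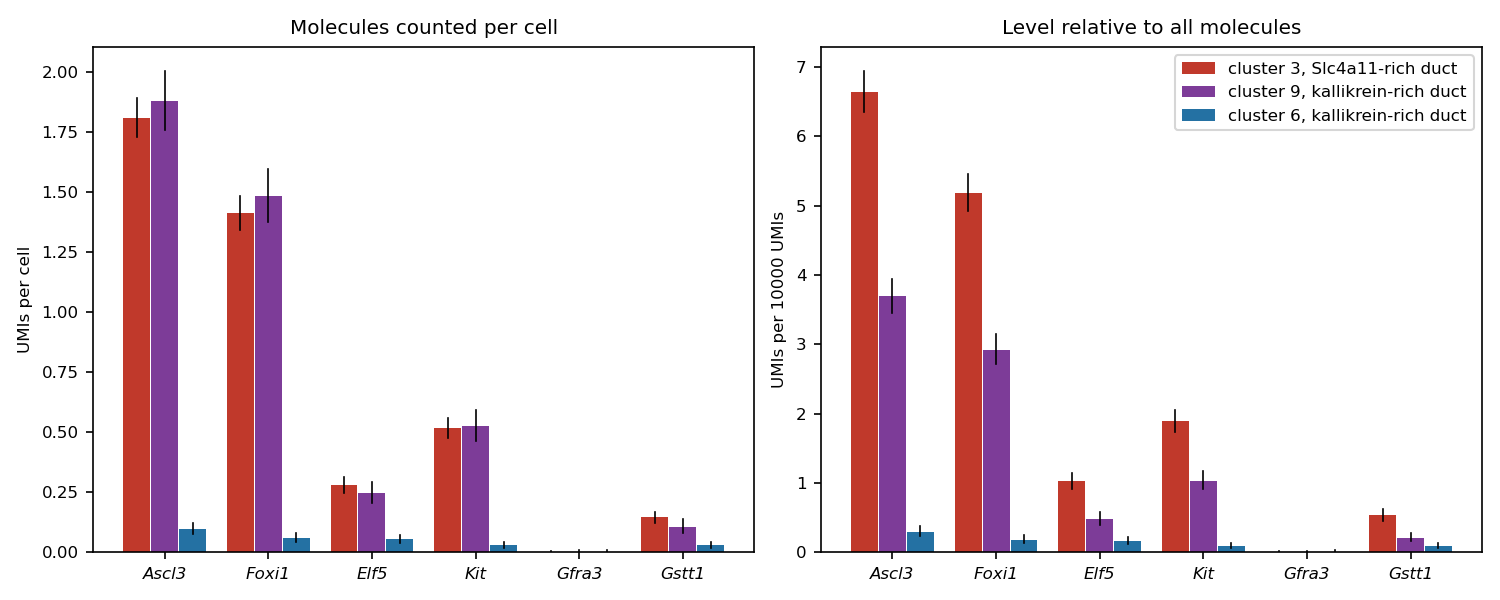
UMIs per cell (left) and per 10000 UMIs (right) of the 6 genes in cluster 3 (*Slc4a11*-rich duct) and clusters 9 and 6 (kallikrein-rich duct). Bars start at 0 and black lines are 95% Poisson intervals. Per cell, *Ascl3*, *Foxi1* and *Kit* are as high in cluster 9 as in cluster 3, and per 10000 UMIs they lie between clusters 3 and 6.

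Detection of *Ascl3* and *Foxi1* in single cells was also compared. In *Slc4a11*-rich duct cells both had a UMI in 438 cells, *Ascl3* alone in 302, *Foxi1* alone in 180 and neither in 160. Independence within the class would give 423 cells with both. Thus 85.2% of the class had at least 1 of the 2 genes, and in this class detection of one hardly went with that of the other. Cells with a UMI of *Ascl3* had a *Foxi1* level of 5.29 and those without one 4.90, a log2 ratio of 0.11 (−0.055 to 0.278). Cluster 9 gave a similar picture, with both genes in 224 of 483 cells against 214 if independent. In cluster 6, where both genes were rare, they met in 5 of 780 cells against 2.17 if independent.

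**Figure D4:**
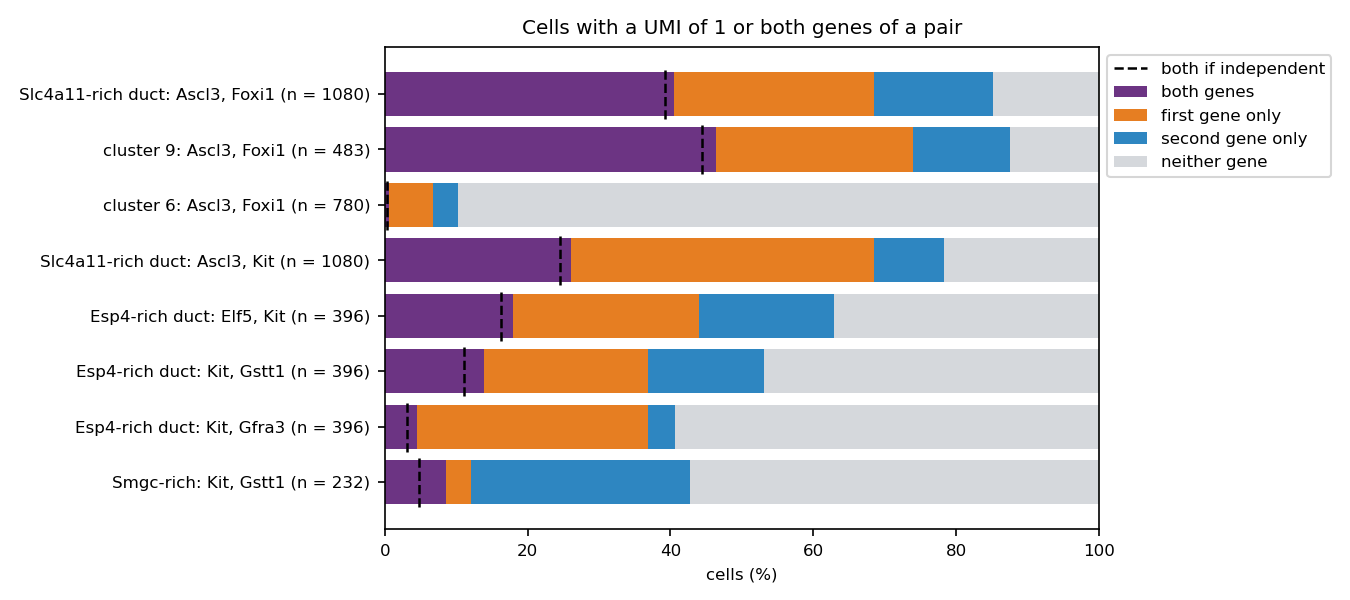
Percent of cells with a UMI of both genes, of either alone or of neither, for 8 pairs of gene and cell group. The dashed line is the percent with both that independence within the group would give. In *Slc4a11*-rich duct cells 40.6% had both *Ascl3* and *Foxi1*, close to the line, and in *Smgc*-rich cells 8.62% had both *Kit* and *Gstt1*.

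*Elf5* was highest in *Esp4*-rich duct cells, at 2.15 (1.90 to 2.41), and second in *Slc4a11*-rich duct cells, at 1.03 (0.913 to 1.15). The log2 ratio was 1.06 (0.825 to 1.30). In 5 of 6 other clusterings, those in which the *Esp4*-rich class grew to between 519 and 690 cells, it was 0.342 to 0.637, so *Elf5* no longer reached the 2-fold limit, although the order of the 2 classes was kept. Myoepithelial, *Smgc*-rich and basal duct cells followed at 0.750, 0.633 and 0.619 and did not differ from each other beyond counting error. Kallikrein-rich duct and the 3 acinar classes lay between 0.241 and 0.323. As a ratio of the highest to the lowest epithelial class, *Elf5* was therefore the member with the smallest range, at 8.91-fold.

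By molecules rather than by level, most *Elf5* was acinar. Serous acinar cells held 51.9% of its UMIs and *Esp4*-rich duct cells 7.85%. The deep serous cluster 2 (28820 UMIs in the median cell) had 0.717 UMIs of *Elf5* per cell and a UMI in 48.5% of cells, beside 0.715 UMIs per cell and 43.9% (39.0 to 49.0) in *Esp4*-rich duct cells at a median of 2368.5 UMIs. Per cell the 2 groups were close, whereas the level per 10000 UMIs of *Esp4*-rich cells was above that of all serous cells by a log2 ratio of 3.16 (2.97 to 3.34). Thinned to 1000 UMIs, 17.4% of *Esp4*-rich duct cells and 2.91% of serous acinar cells kept a UMI, against 0.881% of lymphoid cells. The serous level of 0.241 (0.230 to 0.252) lay above that of lymphoid cells, 0.0921 (0.0577 to 0.139), and of myeloid cells, 0.119 (0.0825 to 0.166). The intervals of vascular (0.0758 to 0.243) and mesenchymal cells (0.0625 to 0.260) held the serous level. So did that of pericyte or smooth muscle cells, which reached 0.304 and rested on 1 UMI. In cluster 2 *Elf5* was at 0.238, whereas *Ascl3*, *Foxi1*, *Kit* and *Gstt1* were at 0.00879 or less.

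*Kit* was at 1.90 (1.74 to 2.06) in *Slc4a11*-rich duct cells and 1.88 (1.65 to 2.13) in *Esp4*-rich duct cells. The log2 ratio was 0.012 (−0.207 to 0.233). In the same 5 clusterings *Slc4a11*-rich duct cells were higher, by 0.461 to 0.762 on the log2 scale, and counted per cell *Esp4*-rich duct cells were higher, at −0.278. Shares of cells were as close, at 35.7% (32.9 to 38.7) and 36.9% (32.1 to 41.8), and 16.6% and 16.4% after thinning. Lymphoid cells had a UMI in 1.59%, or 0.881% after thinning. Although known as a marker of the intercalated duct, *Kit* had 31.7% of its UMIs in the 1080 cells of the class highest in *Ascl3* and *Foxi1*, 15.7% in the 1263 kallikrein-rich cells and 14.1% in the 396 *Esp4*-rich cells, shares that also follow the number of cells.

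The lower classes of *Kit* were myoepithelial cells at 0.750 (0.559 to 0.986), kallikrein-rich duct at 0.553, basal duct at 0.460 and *Smgc*-rich cells at 0.429, whose neighbours in this order did not differ beyond counting error. Mucous, *Dcpp*-rich and serous acinar cells followed at 0.116, 0.0710 and 0.0255, each step between whole classes larger than counting error. By cluster, *Kit* was at 0.106 in serous cluster 0 and 0.0942 in *Dcpp*-rich cluster 1. In the deeper clusters 2 (serous) and 8 (*Dcpp*-rich) it was at 0.0058 and 0.0551. Lymphoid cells were at 0.0837 (0.0511 to 0.129), so no order of acinar cells was read from these levels. The part of depth was not tested. *Kit* is also known from mast cells and melanocytes. In *Esp4*-rich duct cells 0 of 7 mast cell and 0 of 4 melanocyte markers had a UMI, and in *Slc4a11*-rich duct cells 0 of 7 and 1 of 4, with a single UMI.

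*Gfra3* had 47 of its 116 UMIs in *Esp4*-rich duct cells, at a level of 0.356 (0.262 to 0.474). Basal duct cells had 14 UMIs at 0.124 (0.0677 to 0.208) and *Smgc*-rich cells 9 at 0.0966 (0.0442 to 0.183). *Esp4*-rich duct exceeded basal duct cells by a log2 ratio of 1.53 (0.639 to 2.50), and basal and *Smgc*-rich cells did not differ beyond counting error. The log2 ratio of *Esp4*-rich to basal duct cells fell under the 2-fold limit in 3 alternatives, at 0.602 as UMIs per cell, 0.907 at a clustering resolution of 0.3 and 0.909 with the genes kept in the clustering, and 10 principal components formed no basal duct class. *Slc4a11*-rich duct cells had 1 UMI in 1080 cells, and the log2 ratio of *Esp4*-rich to these cells was 6.71 (4.16 to 12.05). *Ascl3* and *Foxi1* differed between these 2 classes in the opposite direction, with log2 ratios of −5.38 (−6.08 to −4.77) and −4.77 (−5.41 to −4.21). Mucous acinar cells had 0 UMIs, which allows a level of up to 0.0152.

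The share of cells with *Gfra3* was 8.33% (5.81 to 11.5) in *Esp4*-rich duct cells and 7.82% (4.34 to 12.8) in basal duct cells, whose median depth was 4445 UMIs. In lymphoid cells it was 0.176%. After thinning it was 2.53% and 2.23% in the first 2 classes. The 2 classes were thus close in their share of cells and differed in level. Peripheral nerves can also express *Gfra3*. In *Esp4*-rich duct cells 3 of 5 Schwann markers had 23 UMIs in all and no cell had 2 or more of the markers. In the same class 16 cells had 2 or more lymphoid markers and held 6 *Gfra3* UMIs. Myeloid markers, again 2 or more, were found in 34 cells with 9 *Gfra3* UMIs. The part of such mixed cells was not tested. A further 8 UMIs of *Gfra3* lay in cluster 12, an unnamed cluster, and 4 in vascular cells. The 4 vascular UMIs, and the 1 UMI of *Slc4a11*-rich duct cells, lay in cells with 2 or more Schwann markers.

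*Gstt1* was at 1.30 (1.12 to 1.51) in *Esp4*-rich duct cells and 1.27 (1.05 to 1.52) in *Smgc*-rich cells, with a log2 ratio of 0.042 (−0.304 to 0.392). In the 5 clusterings with a larger *Esp4*-rich class, *Smgc*-rich cells were higher, at −0.48 to −0.38. *Slc4a11*-rich duct, basal duct and myoepithelial cells lay at 0.533, 0.469 and 0.382, and kallikrein-rich duct cells at 0.150 (0.118 to 0.188). The acinar classes were lowest, from 0.0126 in serous to 0.0708 in mucous cells, beside 0.0377 in lymphoid cells. *Gstt1* was the member that marked *Smgc*-rich cells most, with a UMI in 39.2% (32.9 to 45.8) of them and in 30.1% (25.6 to 34.8) of *Esp4*-rich duct cells. Thinned, these shares were 9.05% and 13.6%, in the opposite order, so no order was read from them.

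Outside the epithelium *Gstt1* was higher still. Mesenchymal cells had 173 UMIs at a level of 2.63 (2.25 to 3.05), a log2 ratio to *Esp4*-rich duct cells of 1.01 (0.699 to 1.33). They had a UMI in 48.5% (42.3 to 54.7) of 262 cells, and in 27.1% after thinning. None of the other 5 genes had its highest level outside the epithelial classes, and *Gfra3* had 0 UMIs in mesenchymal cells, which allows a level of up to 0.0456. Of these 6 genes, *Gstt1* was thus the one whose highest level lay outside duct cells.

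The genes were next compared among the cells of 1 class. In *Esp4*-rich duct cells *Kit* and *Gstt1* met in 55 of 396 cells (43.9 if independent), *Elf5* and *Kit* in 71 (64.2), and *Kit* and *Gfra3* in 18 (12.2). Cells with *Kit* were deeper, at a median of 3384 UMIs against 2133.5 in those without. Their levels did not differ beyond counting error, with log2 ratios of 0.312 (−0.136 to 0.761) for *Gstt1*, 0.086 (−0.261 to 0.432) for *Elf5* and 0.116 (−0.775 to 1.003) for *Gfra3*. Of the 47 *Gfra3* UMIs of this class, 46 lay in the 301 cells with a UMI of *Esp4*, a gland peptide gene, and 1 in the 95 cells without one. The levels were 0.426 and 0.0420, with a log2 ratio of 3.34 (0.791 to 8.68). The other 5 genes did not differ with *Esp4* beyond counting error. Median depths were 2541 UMIs with and 2025 without *Esp4*.

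*Smgc*-rich cells were less uniform. In the 60 cells with a UMI of *Esp4*, *Elf5* was at 1.37 against 0.143 in the 172 cells without one, a log2 ratio of 3.27 (2.18 to 4.55). *Kit* was at 0.969 against 0.0714, a log2 ratio of 3.76 (2.28 to 5.71), and all 9 *Gfra3* UMIs lay in cells with *Esp4*, at 0.242 against 0 UMIs, which allows up to 0.0535. *Gstt1* was at 1.21 and 1.30, a log2 ratio of −0.11 (−0.675 to 0.450). Thus *Elf5*, *Kit* and *Gfra3* of the *Smgc*-rich class came mostly from cells that also had *Esp4*, whereas *Gstt1* came from both kinds. Cells with *Esp4* were deeper, at a median of 5709 against 2936 UMIs, and the part of doublets in this was not tested. *Kit* and *Gstt1* met in 20 of 232 cells (10.98 if independent), but cells with *Kit* were deeper, at a median of 7606 against 3122 UMIs. The level of *Gstt1* did not differ between them beyond counting error, at 1.24 and 1.28, a log2 ratio of −0.045 (−0.722 to 0.588).

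Over the 24 clusters with at least 50 cells, Pearson's r of log2(UMIs per 10000 + 0.1) was 0.961 between *Ascl3* and *Foxi1*, 0.741 between *Elf5* and *Kit*, 0.714 between *Ascl3* and *Kit* and 0.664 between *Elf5* and *Gfra3*. *Ascl3* and *Gfra3* were at −0.111. All clusters come from 1 library and share its depth and background, so these values are descriptions. Among genes with at least 100 UMIs, those most like *Ascl3* were *Nrip3* (0.981), *Plxna4* (0.977), *Slc4a11* (0.972), *Foxi2* (0.966) and *Pde1c* (0.966). For *Foxi1* they included *Slc4a11* (0.988), *Nrip3* (0.971), *Foxi2* (0.969) and *Dmrt2* (0.967). *Foxi2* and *Dmrt2* had not been used in the clustering.

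The 5 genes most like *Elf5* were *Klc3* (0.946), the homeobox gene *Barx2* (0.918), *Paqr6*, *Zfp750* and *Tnk1*. *Kit* was followed by *Acsf2* (0.951), *Atp6v1b1* (0.923), *9130008F23Rik*, *Ltbp2* and *Atp6v1d*, of which *Atp6v1b1* and *Atp6v1d* encode subunits of the vacuolar proton pump. *Gfra3* was followed by the ectoenzyme genes *Bst1* (0.891) and *Enpp3* (0.869), then *Esp4*, *Hsf2bp* and *Slc13a2*, the last a dicarboxylate transporter gene. For *Gstt1* they were *Anpep* (0.909), *H6pd* (0.908), *Smo*, *Boc* and *Snx33*, and 4 of these 5 were highest in the mesenchymal cluster. *Smo* and *Boc* belong to Hedgehog reception.

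Ionocyte and proton pump genes were examined beside *Ascl3* and *Foxi1*. This list too was chosen with earlier results of these data known, so its share of calls is no test. Of 24 listed, 14 had enough UMIs and 10 were called for 1 class, 9 of them for *Slc4a11*-rich duct cells, and the median ratio of the highest to the second class was 2.22, beside 10.4% called and 1.21 over all genes. The 9 included the proton pump subunits *Atp6v1b1* (1.06), *Atp6v0d2* (4.32) and *Atp6v1g3* (0.520), the chloride channel subunit *Bsnd* (2.07), the transcription factors *Foxi2* (2.56) and *Dmrt2* (1.22), and *Stap1* (6.78) and *Asgr1* (4.39), all as levels per 10000 UMIs there. *Moxd1* was called for basal duct cells, at 0.911. *Cftr*, the chloride channel of airway ionocytes, was at 1.10 (0.981 to 1.22) in *Slc4a11*-rich duct cells and 0.604 in kallikrein-rich duct cells, 1.82-fold apart. Within the kallikrein-rich class *Cftr* was at 0.970 in cluster 9 and 0.254 in cluster 6, and *Stap1* at 3.94 and 0.285. *Slc26a4*, *Foxi3* and *Ascl5* had 0 UMIs in the epithelial classes, which in *Slc4a11*-rich duct cells allows up to 0.0102, *Ascl2* had 3 UMIs and *Ascl4* 30. *Ascl3*, with 3562 UMIs in the epithelial classes, thus stood far above these 3 paralogs, whereas *Foxi1* had *Foxi2* beside it.

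**Figure D5:**
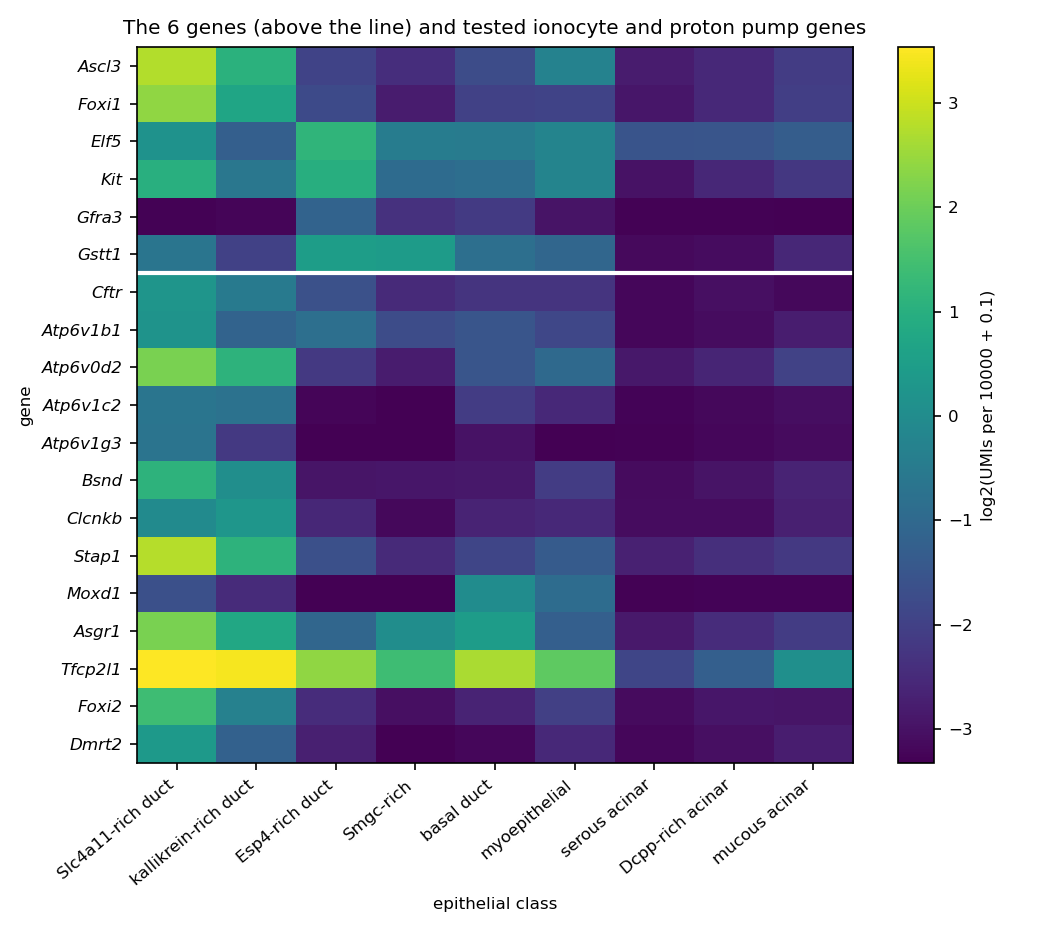
Levels as log2(UMIs per 10000 + 0.1) of the 6 genes (above the white line) and of 13 of the 14 ionocyte and proton pump genes tested, in 9 epithelial classes. Most genes below the line are brightest in *Slc4a11*-rich duct cells with kallikrein-rich duct cells second, as *Ascl3* and *Foxi1* are, whereas *Moxd1* is brightest in basal duct cells. Kallikrein-rich duct cells pool clusters 9 and 6, and *Ascl3*, *Foxi1*, *Cftr* and *Stap1* were lower in cluster 6.

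The partners of the receptors were also measured. Of 15 genes listed with KIT signalling, among them the FGF receptor gene *Fgfr2* and the FGF ligand gene *Fgf10*, 14 were tested and 2 called, with a median ratio of 1.24, beside 10.4% called and 1.21 over all genes. *Etv1*, an ETS transcription factor gene, was called for mucous acinar cells at 2.23 (2.02 to 2.45). *Fgf10*, which is no KIT gene, was called for *Slc4a11*-rich duct cells at 1.53 (1.39 to 1.68), and mesenchymal cells had it at 1.95. *Kitl*, which encodes the KIT ligand, was highest in *Smgc*-rich cells among epithelial classes, at 1.87 (1.60 to 2.17), and reached 2.90 in vascular cells. The ligand gene was thus highest in other classes than the receptor gene. Of 10 GDNF family genes only 2 were tested. *Ret*, the kinase that pairs with GFRA3, was called for kallikrein-rich duct cells at 0.134 (0.104 to 0.170), and *Nrtn* was at 1.22 in *Esp4*-rich duct cells, with a median ratio of 2.05. *Artn*, which encodes the ligand of GFRA3, had 4 UMIs in the epithelial classes, *Gfra2* and *Gfra4* had 2 each and *Gfra1* 1, so *Gfra3* was the co-receptor gene with the most epithelial UMIs, at 97.

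The share of all genes called, 10.4%, and their median ratio of 1.21 also stand beside the next 3 lists. Of 18 glutathione transferase genes 14 were tested and 3 called, with a median ratio of 1.28. *Gstt2*, the paralog of *Gstt1*, was called for *Smgc*-rich cells at 0.580 (0.435 to 0.756), and *Gsta4* and *Gsto1* for basal duct cells at 1.65 and 1.19. *Gstt3*, another theta class gene, was also highest in *Smgc*-rich cells, at 1.40 (1.17 to 1.66), but not called. Among 8 epithelial ETS genes 7 were tested, with a median ratio of 1.24, and *Ehf* alone was called, for *Esp4*-rich duct cells at 6.69 (6.26 to 7.15). *Elf5* shared this class with *Ehf*, and *Elf3* was highest in *Slc4a11*-rich duct cells at 4.31. Of 19 other epithelial regulators 16 were tested and 5 called, with a median ratio of 1.59. These were *Foxc1* (4.67) and *Barx2* (2.58) for *Esp4*-rich duct, *Tfap2b* (0.698) for *Smgc*-rich, *Klf5* (1.96) for basal duct and *Sox2* (0.299) for mucous acinar cells.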

How the data were processed

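The cells were prepared by the authors with 10x Genomics 3′ chemistry, and the authors deposited 1 matrix of raw UMI counts, not normalized, made with Cell Ranger 6.0.1 on mm10 per the labels, which also name Seurat 4.1.1. The annotation of the counts is not given in the sources used here. All 15707 barcodes were kept. LogNormalize at a scale factor of 10000 was applied in Seurat 5.3.0 (R 4.3.3), 43 members and pathway genes were taken out of 2000 variable genes, and cells were clustered on 20 principal components at a Louvain resolution of 0.5. Clusters were named from marker lists, a marker counting when at least 25% of cells had a UMI. The Dcpp-rich and Smgc-rich classes rest on 3 genes and on 1, and clusters with markers of several classes stayed unnamed (4 clusters, 1175 cells).

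Scrublet was run in scanpy 1.11.5, and tables and figures were made with pandas 2.3.3, scipy 1.17.1, matplotlib 3.10.9 and numpy 2.4.6 under Python 3.11.15. Levels carry exact Poisson intervals, shares Clopper-Pearson intervals and log2 ratios exact conditional binomial intervals, all at 95%. The ratio was run on simulated Poisson counts, which the interval assumes. That run could not cover UMIs clumped within cells. As the matrix is 1 sample, no p-value was computed. Depth differs between classes, and the most abundant transcripts lower every other level in acinar cells. Classes are cells of both glands together, so a difference between classes can include one between glands. The 6 genes, the pathway lists and the marker lists were chosen with earlier results of these data known. Genes named are the 6, the pathway genes called or needed for a family, and for each of the 6 the 5 most similar genes. Gene positions are from GENCODE M21 and promoters from RefSeq, where 5 of the 6 genes were used. Some pathway genes counted in the lists are not reported here.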

Additional observations from a re-analysis of the deposited data

How the results depend on the processing

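The values below are log2 ratios of the highest to the second highest epithelial class, and 12 alternatives were run for each gene except *Gfra3*, with 11, since 10 principal components formed no basal duct class. No called value changed sign. The highest class was kept in 12 of 12 alternatives for *Ascl3*, *Foxi1* and *Elf5*, 11 of 11 for *Gfra3*, 8 of 12 for *Kit* and 6 of 12 for *Gstt1*. Of the values, 43 stayed within the counting interval of the reported value and 28 moved out of it. At a resolution of 0.3 the ratio was 1.60 for *Ascl3*, 1.61 for *Foxi1*, 0.574 for *Elf5*, 0.481 for *Kit* and −0.48 for *Gstt1*. At 0.8 it was 0.637 for *Elf5*, 0.461 for *Kit* and −0.425 for *Gstt1*. With 10 principal components it was 1.61, 1.60, 0.342, 0.762 and −0.393 for *Ascl3*, *Foxi1*, *Elf5*, *Kit* and *Gstt1*, and with 30 it was 1.63 for *Ascl3*. With cells filtered at 200 genes and 20% mitochondrial UMIs it was 0.630 for *Elf5*, 0.474 for *Kit* and −0.380 for *Gstt1*. With the genes kept in the clustering it was 1.65 for *Ascl3*, 0.584 for *Elf5*, 0.494 for *Kit* and −0.475 for *Gstt1*. In the 5 clusterings at resolutions of 0.3 and 0.8, with 10 components, with filtered cells and with the genes kept, the *Esp4*-rich class had 519 to 690 cells in place of 396. As mean UMIs per cell the ratio was 1.22 for *Ascl3* and *Foxi1*, 1.35 for *Elf5*, −0.278 for *Kit* and 0.602 for *Gfra3*. Another alternative left out the 10% of cells with the highest Scrublet scores, and kept 1247 of 1263 kallikrein-rich duct cells. For *Ascl3*, *Foxi1*, *Elf5*, *Kit*, *Gfra3* and *Gstt1* it gave 1.80, 1.78, 1.07, 0.031, 1.38 and 0.069. In the same order the ratio was 1.835, 1.836, 1.17, −0.007, 1.536 and 0.037 with free RNA (background) subtracted. With cluster 9 left out it was 4.46 for *Ascl3* and 4.82 for *Foxi1*. This last alternative, and leaving out clusters 0, 1 and 10, were chosen after seeing the data. The cause of the other shifts was not tested.

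No paired analysis was possible because the cells of the 4 samples cannot be told apart. No replicate was left out for the same reason. The *Gfra3* ratio rests on 47 and 14 UMIs. The *Smgc*-rich, basal and myoepithelial classes are small and give wide intervals, and with 0 doublets called the part of doublets is unknown.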
